A study of Homo sapiens with 6 samples.

Results

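Death receptors and their adaptors, 10 genes in all, were followed in PANC1 cells with and without gemcitabine. They were the death receptors FAS, TNFRSF10A, TNFRSF10B, TNFRSF1A and TNFRSF21, the decoy receptors TNFRSF10C and TNFRSF10D, the ligand TNFSF10, and the intracellular adaptors FADD and CFLAR. The 10 members were taken by name from the 20461 genes of the expression table, and all 10 were among the 14854 genes with enough fragments to be tested. PANC1 is an established epithelial line from a human pancreatic ductal carcinoma, and every library came from this 1 line. Vehicle cells had received 0.1% DMSO and treated cells 50 nM gemcitabine, a nucleoside analogue, for 48 h, with 2 RNA-seq libraries in each condition. DNaseI-seq, in which an enzyme cuts accessible chromatin, was available for 1 vehicle and 1 gemcitabine library at the same dose.

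Death receptors are members of the tumour necrosis factor receptor superfamily that carry a death domain in the cell. When a ligand such as Fas ligand or TRAIL clusters FAS, TNFRSF10A (DR4) or TNFRSF10B (DR5), the adaptor FADD joins the receptor and recruits CASP8, which starts the caspase cascade. CFLAR encodes c-FLIP, a relative of CASP8 that competes with it at FADD, and TNFRSF10C and TNFRSF10D bind TRAIL but lack a working death domain. Many carcinoma cells carry these receptors on their surface, and DNA-damaging drugs are often studied together with TRAIL.

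The stretches just upstream of 3 members are shown because 2 of them, FAS and TNFRSF21, lay in a region listed as open in 1 condition only, and the third, TNFSF10, was the member that met every criterion for a change. Promoter sequences from RefSeq (build GRCh38.p14) were used for 6 of the 10 members, those of TNFRSF10A, TNFRSF10B, TNFRSF10C and TNFRSF10D were not analysed here, and each of the 11 sequences matched hg19 exactly once over the 250 bases before the start. Each stretch reads 5′ to 3′ on the strand of the gene and ends where the first annotated transcript of the gene begins. The FAS stretch is chr10:90750305-90750413 on the plus strand, the TNFSF10 stretch chr3:172241266-172241470 on the minus strand, and the TNFRSF21 stretch chr6:47277642-47277891 on the minus strand, all in hg19. Capitals mark matches to the motifs searched.
FAS: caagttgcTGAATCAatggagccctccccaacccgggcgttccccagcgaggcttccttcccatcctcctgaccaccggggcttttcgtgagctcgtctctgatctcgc
TNFSF10: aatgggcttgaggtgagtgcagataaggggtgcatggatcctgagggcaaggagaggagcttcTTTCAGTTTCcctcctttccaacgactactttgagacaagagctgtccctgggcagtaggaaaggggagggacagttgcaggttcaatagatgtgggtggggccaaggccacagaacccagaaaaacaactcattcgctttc
TNFRSF21: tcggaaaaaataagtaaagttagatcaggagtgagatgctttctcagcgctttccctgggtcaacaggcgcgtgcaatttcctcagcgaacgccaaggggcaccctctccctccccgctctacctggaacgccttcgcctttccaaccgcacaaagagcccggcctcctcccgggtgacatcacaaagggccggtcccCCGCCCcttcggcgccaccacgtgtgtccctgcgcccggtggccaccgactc

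TGANTCA, a loosened form of the AP-1 motif with any centre base, was found on either strand in 6.57% of 35116 RefSeq promoters. The capitals in FAS match it with A in the centre. Those in TNFSF10 are a match on the opposite strand to GAAANNGAAA, the core of the interferon-stimulated response element, found in 3.02% of promoters. Those in TNFRSF21 are a match on the opposite strand to the GC box GGGCGG, found in 42.6%. All shares of promoters given here cover the 250 bases before the start. The FAS and TNFSF10 stretches shown are shorter, at 109 and 205 bases. None of the 3 motifs shares letters with another match in these stretches. The other motifs searched on both strands were TATAAA, with matches in 10.7% of promoters, TTCNNNGAA in 6.57%, an NF-kB site in 5.21% and a p53 half-site in 5.57%. Over the whole 250 bases before the start, the TNFRSF21 window held 20 CpG and 62.0% GC, the FAS window 14 CpG and 62.8% GC, and the TNFSF10 window 2 CpG and 49.6% GC, where the median promoter had 11 CpG and 58.0% GC. The most upstream of 3 FAS windows, whose CpG and GC are given here, also held a GC box 60 to 55 bases before the RefSeq start, and the TNFSF10 window a TATAAA 31 to 26 bases before it. A later FAS window, at chr10:90750938-90751187 and with 137 bp in the gemcitabine peak described later, held 1 match to the NF-kB site, 1 to the p53 half-site and 2 GC boxes. Among the CFLAR windows, 1 held an NF-kB site. A match describes these letters only.

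The vehicle libraries held 15153593 and 15766237 fragments in total, and the gemcitabine libraries 13194533 and 13275457. A count of 3 fragments stood for 0.197 to 0.219 CPM, counts scaled to a common library size with TMM. The spread between the 2 libraries of a condition was larger than counting noise, since chi-square averaged 2.17 over genes in vehicle and 5.16 with gemcitabine. Of the markers for the line, KRT7, KRT8, KRT18 and VIM were abundant, while KRT19, EPCAM and CDH1 were at 6.91 FPKM or less in every library. By the rule given later, KRT19 was called higher with gemcitabine, and no marker for the line was called lower. Its log2 fold change was 1.13, with an adjusted p of 0.000645 in edgeR's quasi-likelihood test. Levels are given in FPKM, fragments scaled to transcript length and depth, which allows genes to be compared, and changes in fragments and CPM. TMM scaling adjusts the library totals for composition. In these bulk libraries, fewer cells that express a gene and less RNA per cell cannot be told apart.

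By level, TNFRSF1A and TNFRSF10B stood at the top of the group. TNFRSF1A, the main TNF receptor of most cells, averaged 171 FPKM over the 4 libraries (154 to 195), above 96.1% of the genes in the table. TNFRSF10B followed at 72.9 FPKM (62.5 to 84.5), and the ranges of these genes did not overlap. CFLAR at 28.0 FPKM (21.4 to 31.3) and FAS at 25.1 FPKM (19.0 to 29.9) overlapped each other.

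A lower tier was formed by TNFRSF21 at 16.3 FPKM (15.0 to 17.9), TNFRSF10A at 14.2 FPKM (10.2 to 17.0) and FADD at 12.7 FPKM (11.5 to 14.9), whose ranges overlapped from one to the next. The decoy receptor TNFRSF10D reached 6.65 FPKM (6.38 to 6.87). TNFSF10 at 2.10 FPKM (0.530 to 3.57) and the decoy TNFRSF10C at 1.56 FPKM (1.23 to 1.97) were lowest and overlapped. The highest mean was 109 times the lowest, and 7 members averaged at least 10 FPKM, where the median gene tested had 12.6 FPKM.

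**Figure D1:**
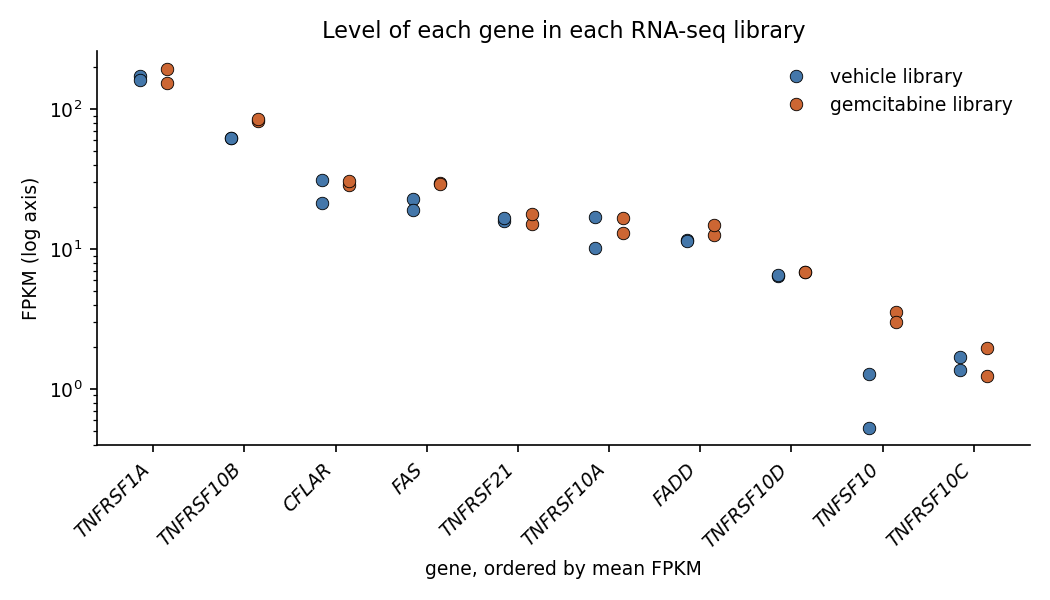
FPKM of the 10 members in each of the 4 RNA-seq libraries on a log axis, 1 point per library, with vehicle in blue and gemcitabine in orange and genes ordered by their mean. TNFRSF1A (154 to 195 FPKM) and TNFRSF10B (62.5 to 84.5 FPKM) stand clear of the rest, and for TNFSF10 both gemcitabine points (3.57 and 3.03) lie above both vehicle points (1.28 and 0.530).

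The question put to these genes was whether their expression differed after gemcitabine. A gene was called changed when it met 4 limits: an adjusted p in edgeR's quasi-likelihood test under 0.05, more than 1.5-fold change, at least 0.1 FPKM on average in either condition, and means that lay at least 1 FPKM apart. By this rule TNFSF10 was the 1 member called, and it was higher, where 5.69% of the tested genes were called higher and 4.43% lower, or 10.1% in either direction. With the adjusted p alone, 4 of 10 members passed, all higher (TNFRSF10C, TNFSF10, CFLAR and FAS), where 18.5% of genes passed higher and 20.0% lower. CPM values of the 2 conditions did not overlap for 7 members, 6 higher and 1 lower with gemcitabine, where 35.0% of genes were separated higher and 34.7% lower. The log2 fold change was above 0 for 7 members and below 0 for 3, with a median of 0.16 where the median of all tested genes was 0.0068.

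TNFSF10 encodes TRAIL, the ligand of the DR4 and DR5 receptors, and lies at chr3:172223298-172241265 on the minus strand. It had 34 and 18 fragments in vehicle and 48 and 42 with gemcitabine, or 2.34 and 1.18 CPM against 3.46 and 3.08 CPM. Both gemcitabine libraries were higher than both vehicle libraries, although the vehicle libraries were themselves far apart. In FPKM the values were 1.28 and 0.530 in vehicle (0.905 ± 0.531, SD, n = 2) and 3.57 and 3.03 with gemcitabine (3.30 ± 0.377, SD, n = 2). The fitted log2 fold change was 0.90 ± 0.33 (SE), with an adjusted p of 0.0418 in edgeR's quasi-likelihood test. The call rested on few fragments and on single libraries. Without vehicle replicate 2 the log2 fold change was 0.49 (adjusted p = 0.347), without gemcitabine replicate 1 it was 0.82 (adjusted p = 0.0610), and in DESeq2 the adjusted p was 0.172.

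FAS, the receptor of Fas ligand, was moderately higher with gemcitabine. It lies at chr10:90750414-90775542 on the plus strand and had 594 and 612 fragments in vehicle and 680 and 689 with gemcitabine. Its CPM values of 40.9 and 40.2 against 49.0 and 50.6 were separated by more than the spread within either condition. FPKM was 22.7 and 19.0 in vehicle and 29.9 and 29.0 with gemcitabine, again without overlap. The log2 fold change was 0.30 ± 0.078 (SE), or 1.23-fold, with an adjusted p of 0.00771 in edgeR's quasi-likelihood test, below the fold limit of the call. With 1 vehicle library left out the size held while the test did not pass, at 0.32 (adjusted p = 0.0786) without vehicle replicate 1 and 0.29 (adjusted p = 0.0995) without vehicle replicate 2.

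FAS shares 683 bp of its 5′ end with ACTA2, the gene of smooth muscle actin, on the opposite strand, and the library kit does not mark strand, so reads there cannot be told apart. ACTA2 had 1088 and 1120 fragments in vehicle and 1597 and 1347 with gemcitabine. Its log2 fold change was 0.53 ± 0.078 (SE), with an adjusted p of 0.000109 in edgeR's quasi-likelihood test. The part of the shared stretch in the FAS values was not tested.

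The 2 signalling receptors of TRAIL did not pass the test. TNFRSF10B (DR5), at chr8:22877646-22926544 on the minus strand, had 1965 and 2065 fragments in vehicle and 2033 and 2011 with gemcitabine. Scaled to 135 and 136 CPM against 146 and 148 CPM, the conditions did not overlap but lay close together. This gave a log2 fold change of 0.12 ± 0.064 (SE), with an adjusted p of 0.160 in edgeR's quasi-likelihood test. FPKM gave a larger difference, from 62.5 in both vehicle libraries to 82.1 and 84.5 with gemcitabine. With limma on log2(FPKM + 1) the difference was 0.41 (adjusted p = 0.0338), and with library totals in place of TMM it was 0.23 (adjusted p = 0.00872), where the median of all genes moved to 0.12. TNFRSF10B also overlaps RHOBTB2 on the opposite strand by 377 bp, and a noncoding gene on that strand by 803 bp. Noncoding genes or pseudogenes also overlap FAS, TNFRSF10A, TNFRSF10C, TNFSF10, FADD and CFLAR by position. Their part in the fragments was not tested.

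TNFRSF10A (DR4), at chr8:23047965-23082615 on the minus strand, was the only member whose CPM was separated downwards. It had 328 and 314 fragments in vehicle and 239 and 269 with gemcitabine, or 22.6 and 20.6 CPM against 17.2 and 19.8 CPM. Its log2 fold change was -0.22 ± 0.11 (SE), with an adjusted p of 0.126 in edgeR's quasi-likelihood test. Without gemcitabine replicate 2 it was -0.32 (adjusted p = 0.0272). FPKM of 17.0 and 10.2 in vehicle and 13.0 and 16.6 with gemcitabine overlapped, and the sign turned on that scale, to 0.15 in limma (adjusted p = 0.726).

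TNFRSF10C, the decoy receptor held by a lipid anchor, had the largest fitted change, though within the standard error of that of TNFSF10, and the lowest mean FPKM over the 4 libraries, where TNFSF10 was lower in vehicle alone. It lies at chr8:22960434-22974958 on the plus strand and had 29 and 35 fragments in vehicle and 65 and 48 with gemcitabine, or 2.00 and 2.30 CPM against 4.68 and 3.52 CPM. The conditions did not overlap in CPM, but FPKM did, at 1.68 and 1.37 in vehicle and 1.23 and 1.97 with gemcitabine. The log2 fold change was 0.93 ± 0.27 (SE), or 1.91-fold, with an adjusted p of 0.0129 in edgeR's quasi-likelihood test. It was not called because its mean FPKM differed by less than 1. The adjusted p was 0.135 without vehicle replicate 1 (log2 fold change 0.84), 0.0859 without vehicle replicate 2 (1.05), 0.0743 without gemcitabine replicate 1 (0.71) and 0.0883 in DESeq2, and with limma on log2(FPKM + 1) the difference was 0.028 (adjusted p = 0.936). A coding gene of the GENCODE v44 annotation overlaps it by 12616 bp on the same strand, so its fragments are uncertain.

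TNFRSF10D, the decoy receptor with a truncated death domain, lies at chr8:22993101-23021540 on the minus strand. It had 345 and 390 fragments in vehicle and 346 and 324 with gemcitabine, and its CPM values of 23.7 and 25.6 against 24.9 and 23.8 overlapped. FPKM did not overlap, at 6.38 and 6.53 in vehicle and 6.87 and 6.82 with gemcitabine. The fit gave a log2 fold change of -0.02 ± 0.097 (SE), with an adjusted p of 0.898 in edgeR's quasi-likelihood test, and its sign turned with library totals (0.091).

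The balance of decoy to signalling receptors was followed as the sum of TNFRSF10C and TNFRSF10D over the sum of TNFRSF10A and TNFRSF10B. In FPKM it was 0.101 and 0.109 in vehicle and 0.0851 and 0.0870 with gemcitabine, lower in both treated libraries, by a ratio of means of 0.819. In fragments it was 0.163 and 0.179 in vehicle and 0.181 and 0.163 with gemcitabine, with a ratio of 1.01, so the difference was seen in FPKM only. With 2 libraries against 2, the smallest p that an exact permutation test can give is 0.333, and no test was run.

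TNFRSF1A, the receptor that carries TNF signals to both NF-kB and cell death, lies at chr12:6437923-6451280 on the minus strand. It had 2275 and 2332 fragments in vehicle and 2156 and 2139 with gemcitabine, or 157 and 153 CPM against 155 and 157 CPM. The conditions overlapped, with a log2 fold change of 0.01 ± 0.065 (SE) and an adjusted p of 0.897 in edgeR's quasi-likelihood test. FPKM of 173 and 163 in vehicle and 195 and 154 with gemcitabine overlapped as well.

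TNFRSF21 (DR6), a death-domain receptor studied mostly in neurons and lymphocytes, lies at chr6:47199268-47277641 on the minus strand. It had 885 and 1004 fragments in vehicle and 739 and 867 with gemcitabine. The CPM values of 60.9 and 65.9 against 53.2 and 63.7 overlapped, since the gemcitabine libraries differed from each other by more than the conditions did. The fit gave a log2 fold change of -0.12 ± 0.088 (SE), with an adjusted p of 0.314 in edgeR's quasi-likelihood test. Leaving out either gemcitabine library moved this value, to -0.25 without gemcitabine replicate 2 and to 0.0065 without gemcitabine replicate 1.

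The adaptors were compared next. FADD, at chr11:70049402-70053496 on the plus strand, had 321 and 352 fragments in vehicle and 338 and 376 with gemcitabine. Its CPM values of 22.1 and 23.1 against 24.4 and 27.6 did not overlap, and neither did FPKM, at 11.7 and 11.5 against 12.7 and 14.9. The log2 fold change of 0.20 ± 0.10 (SE) did not pass, with an adjusted p of 0.134 in edgeR's quasi-likelihood test. Without gemcitabine replicate 1 it was 0.29 (adjusted p = 0.0272), and with library totals 0.31 (adjusted p = 0.0258).

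CFLAR, the c-FLIP gene at chr2:201980877-202041410 on the plus strand, had 329 and 384 fragments in vehicle and 442 and 403 with gemcitabine. Its CPM values of 22.6 and 25.2 rose to 31.8 and 29.6, without overlap. Its log2 fold change was 0.36 ± 0.097 (SE), or 1.28-fold, with an adjusted p of 0.00909 in edgeR's quasi-likelihood test. FPKM told less, since vehicle values of 31.3 and 21.4 enclosed those with gemcitabine, 28.8 and 30.7, and limma on that scale gave 0.19 (adjusted p = 0.511). The adjusted p was 0.152 without vehicle replicate 1 (log2 fold change 0.29), 0.0527 without vehicle replicate 2 (0.45) and 0.0613 in DESeq2.

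The ratio of CFLAR to FADD in FPKM was 2.66 and 1.86 in vehicle and 2.26 and 2.06 with gemcitabine, so the conditions overlapped. In fragments it was 1.02 and 1.09 against 1.31 and 1.07, which overlapped too.

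**Figure D2:**
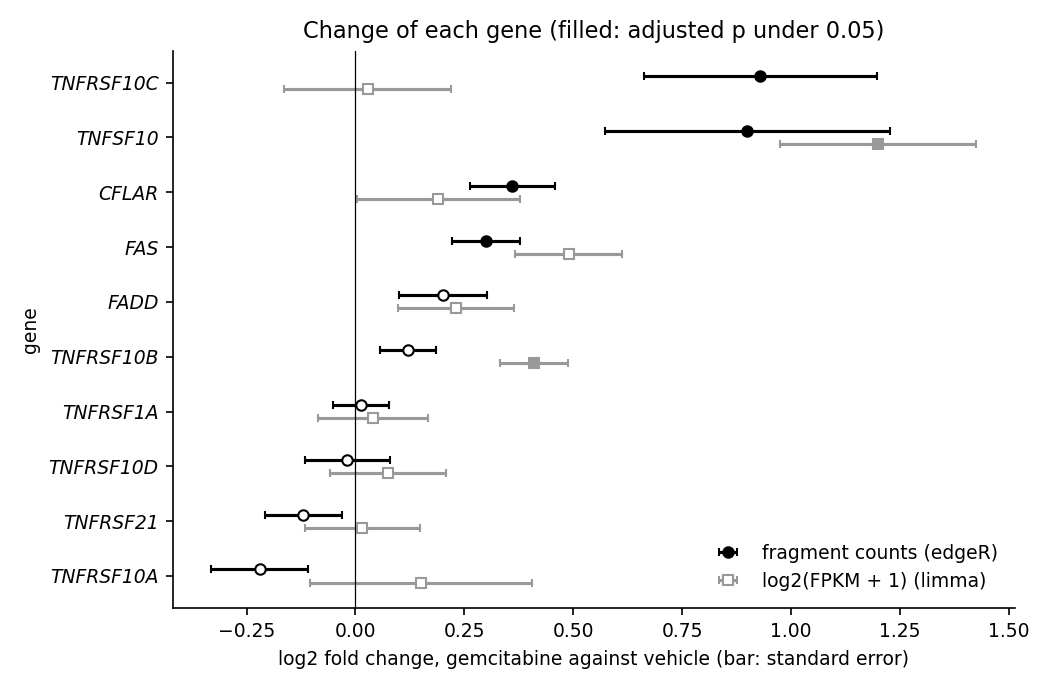
Log2 fold change of each member, gemcitabine against vehicle, with the standard error as a bar, from edgeR on fragment counts (black circles) and from limma on log2(FPKM + 1) (grey squares), on 2 libraries per condition, filled where the adjusted p was under 0.05. In edgeR, TNFRSF10C (0.93) and TNFSF10 (0.90) lie furthest from 0 with the widest bars, and FAS (0.30) and CFLAR (0.36) lie closer with narrow ones.

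**Figure D3:**
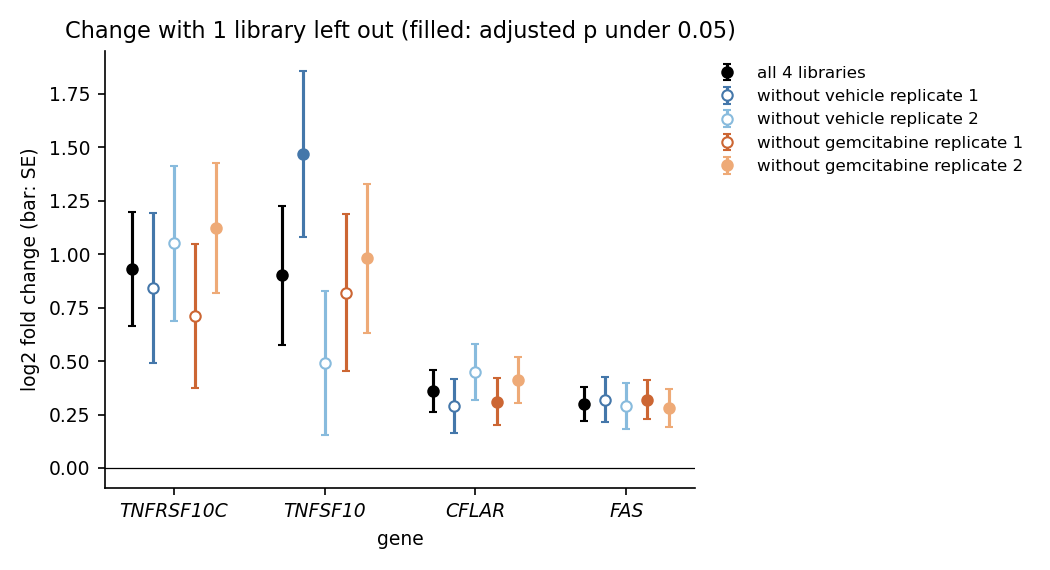
Log2 fold change, with its standard error as a bar, of the 4 members with an adjusted p under 0.05, in the fit with all 4 libraries and in the 4 fits that each leave out 1 library. Filled points passed the test. TNFSF10 moves most, between 0.49 and 1.47, while FAS stays between 0.28 and 0.32.

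Other genes of death receptor signalling were set beside the members. Of a list of 43, 36 were tested, with a median log2 fold change of 0.25. Of the 36, 4 were called higher and none lower, where 5.69% of all tested genes were called higher and 4.43% lower. Counted by edgeR's adjusted p alone, 16 of the 36 were higher and 2 lower, where 18.5% and 20.0% of all tested genes passed. In the list, 18 and 2 had an unadjusted p under 0.05. DESeq2 called 4 higher and 0 lower. The 4 called were CASP10, BIRC3, TNFAIP3 and CYLD.

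CASP10, an initiator caspase that also binds FADD, had 6 and 12 fragments in vehicle and 40 and 43 with gemcitabine, with a log2 fold change of 2.31 (adjusted p = 0.000283 in edgeR's quasi-likelihood test). BIRC3, a ubiquitin ligase of the TNF receptor complex and an NF-kB target, had 168 and 183 against 370 and 388 fragments, with a log2 fold change of 1.22 (adjusted p = 1.16e-06), but 0.98 (adjusted p = 0.0556) with limma on log2(FPKM + 1). TNFAIP3, the A20 deubiquitinase that limits NF-kB, had 248 and 275 against 549 and 574 fragments, also with 1.22 (adjusted p = 3.57e-07). CYLD, a deubiquitinase of the same complexes, had 233 and 271 against 392 and 414 fragments, with 0.79 (adjusted p = 3.39e-05). For all 4, both gemcitabine libraries lay above both vehicle libraries in CPM, where 35.0% of all tested genes were separated in this direction. These 4 were picked by a test on the same libraries, so the separation is no further support.

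CASP8, the caspase that FADD recruits, did not pass, with a log2 fold change of 0.03 (adjusted p = 0.787 in edgeR's quasi-likelihood test), and it is named here although it falls outside the naming rule. The most abundant genes of the list were BAX and BID, the Bcl-2 family proteins that link death receptors to mitochondria. BAX stood at 178 and 173 FPKM in vehicle and 222 and 242 FPKM with gemcitabine, and its log2 fold change was 0.26 (adjusted p = 0.0114), which did not pass without vehicle replicate 1 (adjusted p = 0.0969), without vehicle replicate 2 (adjusted p = 0.118) or in DESeq2 (adjusted p = 0.0636). BID, at 73.0 and 65.8 FPKM against 83.2 and 79.5 FPKM, had 0.08 (adjusted p = 0.428). FASLG, the ligand of FAS, and RIPK3, a kinase of necroptosis, were at 0 fragments in all 4 libraries, which allows a level of up to 0.197 to 0.219 CPM.

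Among other TNF superfamily ligands, 8 of 13 were tested, with a median log2 fold change of 0.83. In edgeR, 3 of the 8 were called higher and none lower, where 5.69% of all tested genes were called higher and 4.43% lower. DESeq2 also called 3 higher and 0 lower, and edgeR's unadjusted p was under 0.05 for 3 higher and 0 lower. CD70, the ligand of CD27, had 8 and 11 fragments in vehicle and 40 and 34 with gemcitabine (log2 fold change 2.06, adjusted p = 0.000548 in edgeR's quasi-likelihood test). TNFSF9, the 4-1BB ligand, had 135 and 185 against 261 and 250 fragments (0.79, adjusted p = 0.000394), and TNFSF13, the APRIL gene, 88 and 89 against 176 and 149 (0.99, adjusted p = 0.000205). The TNFSF13 counts were not whole before rounding, so reads may be shared with another gene and the values are uncertain. The ligands called were low in level, at 12.1 FPKM or less in every library.

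Of 17 other TNF receptors, 12 were tested, with a median log2 fold change of 0.27. None was called in edgeR, where 10.1% of all tested genes were called. By adjusted p alone 3 were higher and 3 lower, where 18.5% and 20.0% of all tested genes passed. The 3 higher had at most 19 fragments in any library, and the 3 lower at least 378. DESeq2 called 0 as well, and edgeR's unadjusted p was under 0.05 for 4 higher and 3 lower. The most abundant were TNFRSF12A, the TWEAK receptor, and LTBR, the lymphotoxin beta receptor. LTBR had 2782 and 2723 fragments in vehicle and 1792 and 1762 with gemcitabine, a log2 fold change of -0.52 (adjusted p = 3.29e-05 in edgeR's quasi-likelihood test), below the fold limit, and with limma on log2(FPKM + 1) it was -0.28 (adjusted p = 0.0668). TNFRSF12A had 1058 and 995 against 766 and 773 fragments, a log2 fold change of -0.30 (adjusted p = 0.00649), which was -0.22 without vehicle replicate 1 (adjusted p = 0.166) and -0.19 with library totals (adjusted p = 0.0584). TNFRSF9 was at 0 fragments in both vehicle libraries and at 10 and 12 with gemcitabine. Its mean CPM with gemcitabine was 3.97 times a floor of 3 fragments per vehicle library. TNFSF15, a death receptor ligand, went from 0 in both vehicle libraries to 8 and 6, or 2.52 times that floor. These values leave out the counting error of the gemcitabine libraries. Both genes passed the filter on fragments only through the gemcitabine libraries. The medians of the lists were the same with these genes at their values against the floor.

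**Figure D4:**
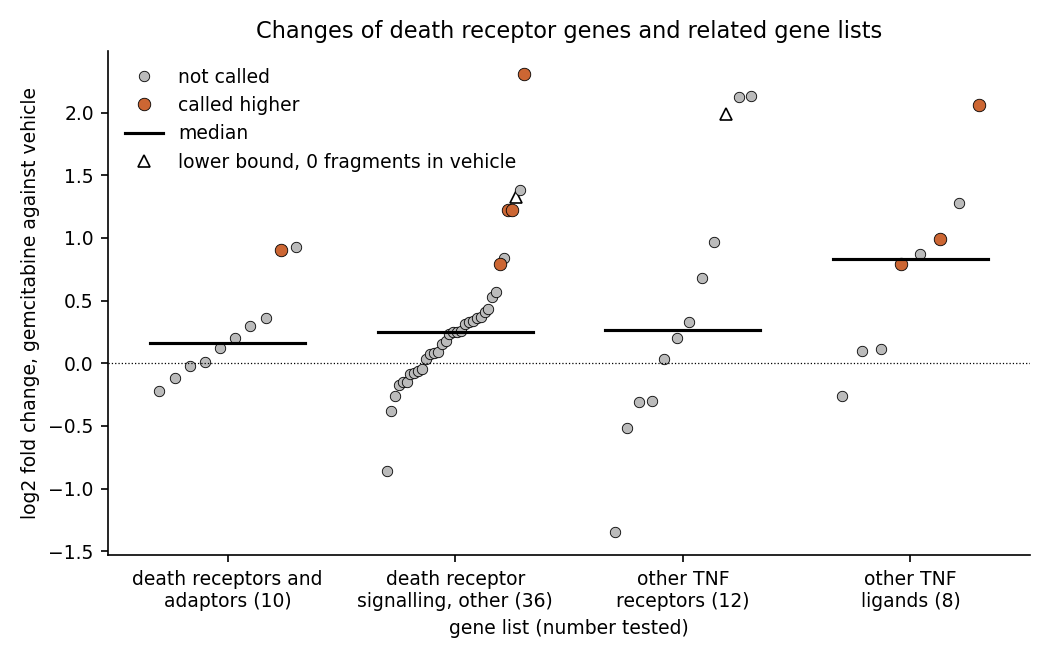
Log2 fold change of every tested gene in 4 lists, gemcitabine against vehicle, with the list medians as lines and called genes filled in colour. Genes at 0 in vehicle are triangles at their value against a floor of 3 fragments, without the counting error of the gemcitabine libraries. The medians are 0.16 for the members, 0.25 for other death receptor signalling genes, 0.27 for other TNF receptors and 0.83 for other ligands.

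Most markers of other cell types were low, but some moved with the condition. CD68 was not low, at 10.9 and 10.7 FPKM in vehicle and 20.2 and 24.6 FPKM with gemcitabine. It was called higher with gemcitabine (log2 fold change 0.94, adjusted p = 6.41e-05 in edgeR's quasi-likelihood test). LUM was called higher as well (0.77, adjusted p = 0.00374), and no marker of these lists was called lower. The 7 leukocyte markers summed to 10.8 to 10.9 FPKM in vehicle and 20.6 to 24.8 FPKM with gemcitabine, nearly all from CD68, while CD3E and LYZ were at 0 in every library. Of the fibroblast and endothelial markers, 5 of 6 were analysed here and summed to 7.52 to 7.92 FPKM in vehicle and 14.2 to 14.8 FPKM with gemcitabine, mostly from LUM and DCN. In fragments, LUM had 67 and 71 in vehicle and 116 and 102 with gemcitabine, DCN 32 and 39 against 24 and 32, and VWF 8 and 9 against 34 and 30, so DCN was higher in FPKM only. PDGFRA was at 0 in 3 of the 4 libraries. Their part in the changes above was not tested.

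Open chromatin near the members was compared between the 2 DNaseI-seq lists, each from 1 library, so no difference has a replicate check. The vehicle list held 9606 peaks and the gemcitabine list 10695, with median scores of 71.1 and 73.8 and none under 50.0, so a gene without a peak may still have had a weaker one. Within 5 kb of an annotated start, 2 members had a peak in both lists, 2 in vehicle only, 1 in gemcitabine only and 5 in neither. Of the 14154 tested genes with an annotated start, 24.2% had a peak in both, 7.49% in vehicle only and 12.4% in gemcitabine only.

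FAS had its peak in the gemcitabine list only, at chr10:90749792-90751074, with a score of 70.4 in a list whose median was 73.8. The peak is 1283 bp wide, covers 4 annotated coding starts of FAS and the whole FAS stretch shown above, and also overlaps the 5′ end of ACTA2 on the opposite strand. TNFRSF21 had its peak in the vehicle list only, at chr6:47277199-47278283, with a score of 89.6, and it covers the TNFRSF21 stretch shown above. CPM of FAS was higher with gemcitabine, and CPM of TNFRSF21 overlapped between conditions.

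TNFRSF10A had a peak over its start in both lists, at chr8:23082341-23082993 with a score of 59.7 in vehicle and at chr8:23082394-23083157 with a score of 74.5 with gemcitabine. TNFRSF10B had a weak peak in the vehicle list only, at chr8:22925137-22925791 with a score of 51.4, which lies 743 bp inside the gene from the nearest start and touches no exon of a coding transcript. TNFRSF1A had a peak in both lists inside the gene, in no exon of a coding transcript, 4930 bp from the nearest start in vehicle (score 133) and 4742 bp with gemcitabine (score 98.1). TNFRSF10C, TNFRSF10D, TNFSF10, FADD and CFLAR had none in either list. TNFSF10, the member called higher, was thus among those without a listed open region in either condition.

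**Figure D5:**
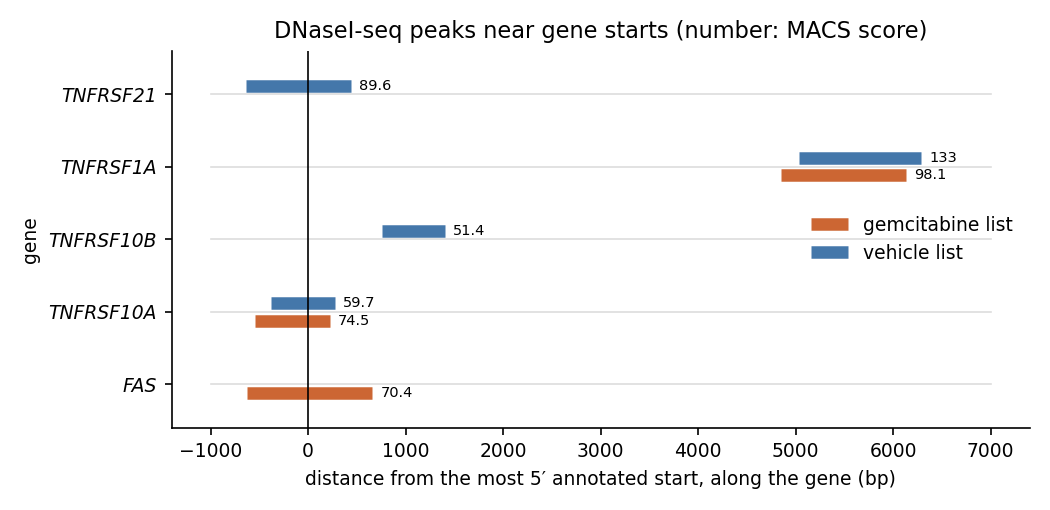
Peaks within 5 kb of an annotated start of the members, drawn by distance from the gene's first start in the direction of transcription, with the vehicle list in blue, the gemcitabine list in orange and the MACS score beside each peak. FAS has a gemcitabine peak over its start, TNFRSF21 a vehicle peak over its start, and TNFRSF10A a peak in both lists.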

How the data were processed

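RNA-seq of 4 PANC1 libraries (2 vehicle, 2 gemcitabine) and DNaseI-seq of 2 were used. Per the labels and methods, the authors aligned RNA reads to hg19 with TopHat2 2.0.8 and quantified protein-coding genes of Gencode with Cuffdiff 2.0.2. The deposited estimated counts are fragments per gene and library, of which 89.5% are whole within 0.001, and the deposited FPKM came from the same Cuffdiff run by the authors. Its 2 further scaled columns were set aside. A failed estimate was recorded for 275 of 20461 genes, none of them a member. The deposited peak lists give positions and a MACS score, a scaled log10 p-value that was used only to rank peaks. Libraries in the table carry an index that only tells them apart, and replicates are numbered by it. The p-values measure the spread between these libraries.

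Counts were rounded, genes with fewer than 10 fragments summed over the 4 libraries were dropped, and edgeR 4.0.16 was applied to the rest (quasi-likelihood, TMM, Benjamini-Hochberg over 14854 genes) in R 4.3.3, in place of Cuffdiff. The test was checked on simulated data. Alternatives used DESeq2 1.42.0, limma 3.58.1, library totals, no filter and each library left out. A library left alone in its condition was assumed to vary like the others. Gene positions come from GENCODE v44 lifted to hg19, symbols from a name table that matched 19619 genes. Standard errors and tests are on the log2 scale, and intervals and floors cover counting error only. The 7 lists, of which the members are 1, were chosen with earlier results of these data known. Beyond the members, the text names list genes that were called, the 2 with the highest FPKM in each list, and the 3 genes nearest in pattern to 2 members, with exceptions stated or named for a value of 0. CASP8AP2, IKBKG and PECAM1 were not analysed here.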

Additional observations from a re-analysis of the deposited data

How the results depend on the processing

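The number of members called, 1 in the reported fit, was 0 with DESeq2, with no filter on low counts and with limma on log2(FPKM + 1) without a filter, 4 by adjusted p alone, and 0 to 1 with 1 library left out (0 without vehicle replicate 2 and without gemcitabine replicate 1). The number of members with an adjusted p under 0.05, 4 in the reported fit, was 1 with DESeq2, 2 with limma on log2(FPKM + 1) or log2(FPKM + 0.1), 0 with limma without a filter, and 0 to 6 with 1 library left out (1 without vehicle replicate 1 and 0 without vehicle replicate 2). Other signalling genes called, 4 as reported, numbered 18 by adjusted p alone, 0 with limma without a filter, and 4 to 5 with 1 library left out. Over all genes, 1503 were called, against 5725 by adjusted p alone, 1268 to 1694 with 1 library left out, and 0 with limma without a filter, where 4689 of 17783 genes had an unadjusted p under 0.05 and none an adjusted one. Library totals in place of TMM moved the median of all genes from 0.0068 to 0.12 and the split of called genes from 845 higher and 658 lower to 1164 higher and 417 lower. The sign turned in limma for TNFRSF10A (0.15 with and without the filter, 0.16 with a pseudocount of 0.1), TNFRSF10D (0.074, 0.084 with 0.1) and TNFRSF21 (0.016), with library totals for TNFRSF10D (0.091), and with 1 library left out for TNFRSF10D (-0.065 to 0.045) and TNFRSF21 (-0.25 to 0.0065). Over all members and alternatives, 77 values kept direction and side of the threshold, 23 lost the test, 7 gained it and 13 reversed. The decoy to signalling ratio was 1.01 times vehicle in fragments. At a score of at least 100, 1 member had a peak in the vehicle list and 0 in the gemcitabine list. The cause of these shifts was not tested. No paired analysis was possible because the index of the libraries in the table has no known link to the replicate numbers that the labels give. Depth limits TNFSF10 and TNFRSF10C most, with 18 to 65 fragments a library.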

Other observations

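The genes whose pattern over the 4 libraries lay nearest to that of TNFRSF10C, among 12842 genes that averaged 1 CPM or more, were PIGC, TUFT1 and THBD, by Euclidean distance between centred log2 CPM values. PIGC had 22 and 26 fragments in vehicle and 51 and 38 with gemcitabine, at a distance of 0.0596. TUFT1 had 329 and 389 against 672 and 516 fragments, at a distance of 0.0623. THBD, the gene of thrombomodulin, had 9 and 11 against 23 and 17 fragments, at a distance of 0.0854. All 3 were higher in gemcitabine replicate 1 than in replicate 2, as TNFRSF10C was, and PIGC and THBD were counted from as few fragments. Nearest to TNFRSF1A were YWHAB at a distance of 0.00801, CCNK at 0.0119 and SDF4 at 0.0120, each with a log2 fold change of 0.01. A likeness over 4 libraries is a description only, and here it follows from how these genes were picked.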
